A study of Mus musculus with 2 samples.

Results

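The genes described here were the vascular endothelial growth factor (VEGF) ligands, receptors and neuropilins: Vegfa, Vegfb, Vegfc, Flt1, Kdr, Flt4, Nrp1 and Nrp2. The rule takes them by name and uses no measured value, although earlier results of these data were known when they were proposed. They are 8 of the 43346 genes with an Ensembl identifier in the tables. All 8 were found in both libraries, with 32 annotated transcripts among 103639. The study sequenced total RNA of the mouse heart at embryonic day 14.5, from the inbred strain B6NCrl, with no transgene or treatment named in the labels. The only group held 2 libraries, called heart 1 (biological replicate 1, collected on July 15) and heart 2 (biological replicate 2, collected on July 17). Each came from 1 whole heart, so embryo and collection day differed together and cannot be told apart. By the sex-linked genes given below, the sex of the embryo differed along with them.

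VEGF ligands are secreted proteins that guide the growth of blood and lymphatic vessels. They act through 3 receptor tyrosine kinases, which endothelial cells carry: Flt1 (VEGFR1), Kdr (VEGFR2) and Flt4 (VEGFR3). Neuropilins are coreceptors without a kinase of their own, shared with the class 3 semaphorins. In the embryonic heart these genes take part in the growth of the coronary and lymphatic vessels, and several are spliced into forms that differ in their binding to matrix, to coreceptors or to the membrane.

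Alternative exons separate the forms that are compared further on, and the sequences below show what is gained or lost in each. All were read from the GENCODE M21 transcripts on GRCm38, in the sense of the RNA, with capitals for the alternative stretch and lower case for the neighbouring coding bases. For Vegfa, on the minus strand, exon 6 (chr17:46022277-46022348, 72 nt) and exon 7 (chr17:46020991-46021122, 132 nt) are coding exons for heparin-binding residues, and the third line shows the junction made when both are skipped, with the coding start of exon 8 (chr17:46018861-46018879) in capitals.
Vegfa exon 6: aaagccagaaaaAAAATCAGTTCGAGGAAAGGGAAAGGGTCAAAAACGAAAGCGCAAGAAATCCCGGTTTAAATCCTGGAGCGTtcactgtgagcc
Vegfa exon 7: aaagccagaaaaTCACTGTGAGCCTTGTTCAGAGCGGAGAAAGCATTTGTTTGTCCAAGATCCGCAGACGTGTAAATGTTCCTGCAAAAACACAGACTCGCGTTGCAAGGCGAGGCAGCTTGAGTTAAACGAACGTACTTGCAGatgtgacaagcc
Vegfa exon 5 to exon 8: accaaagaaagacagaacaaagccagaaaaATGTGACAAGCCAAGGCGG

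Vegfb, also on the minus strand, has a longer and a shorter exon 6. The added 101 nt (chr19:6985496-6985596) belong to Vegfb-201, the model of the VEGF-B186 kind, and are absent from Vegfb-202, the model of the VEGF-B167 kind. The stretch is not a multiple of 3, so the reading frame after it differs between the models.
Vegfb-201 added exon 6 stretch: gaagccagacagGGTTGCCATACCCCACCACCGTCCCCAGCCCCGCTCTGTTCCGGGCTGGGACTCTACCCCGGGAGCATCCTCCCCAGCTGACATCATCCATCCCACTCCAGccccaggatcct

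Flt1, on the minus strand, has a soluble form that ends inside the intron after exon 13. Its own coding stretch of 92 nt (chr5:147639133-147639224) is in capitals, and the stop codon follows in lower case.
Flt1-203 coding extension: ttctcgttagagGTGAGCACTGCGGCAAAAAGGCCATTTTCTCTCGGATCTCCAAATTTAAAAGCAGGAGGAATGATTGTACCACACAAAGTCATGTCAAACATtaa

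Nrp2, on the plus strand, has a short extension of exon 15 (chr1:62786302-62786316, 15 nt), a cassette exon (chr1:62812534-62812584, 51 nt) and alternative last coding exons. Tail a and tail b carry different membrane-spanning and cytoplasmic ends. The first 60 nt of each are in capitals (chr1:62815333-62815392 for tail a and chr1:62795709-62795768 for tail b).
Nrp2 exon 15 added stretch: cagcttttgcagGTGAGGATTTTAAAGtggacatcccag
Nrp2 exon 16 cassette: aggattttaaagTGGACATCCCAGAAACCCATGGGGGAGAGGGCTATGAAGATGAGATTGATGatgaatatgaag
Nrp2 tail a start: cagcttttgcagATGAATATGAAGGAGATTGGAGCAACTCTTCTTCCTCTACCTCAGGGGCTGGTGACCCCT
Nrp2 tail b start: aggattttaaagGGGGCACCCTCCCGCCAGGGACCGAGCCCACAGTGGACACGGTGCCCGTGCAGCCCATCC

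The libraries held 2.85e+07 and 2.90e+07 estimated read counts, and 3.74% and 3.55% of these lay on spike-in RNAs. Levels are in TPM, transcript amounts scaled for length and set to a total of 1e+06 per library, so genes can be compared within a library. At this depth 1 count on a gene of 1 kb was worth 0.0478 TPM in heart 1 and 0.0475 in heart 2. Of all genes, 13635 had at least 1 TPM in both hearts, and their median was 14.15 TPM. The tissue label fitted the cell markers, since 8 of 8 cardiomyocyte markers were above 1 TPM in both hearts, with list medians of 1655 and 1663 TPM, and 0 of 6 liver and lung markers were. The hearts differed in some marker lists. Of 8 erythroid markers 7 were at least 1.5-fold lower in heart 2, and their summed level was 60858 TPM in heart 1 and 34540 TPM in heart 2. Xist, the RNA of the inactive X chromosome, was at 0.04 and 37.7 TPM, and the Y-linked gene Eif2s3y was at 57.5 and 0 TPM, whereas the labels give a pool of both sexes for each. Ddx3y, Uty and Kdm5d, also Y-linked, were at 27.3, 16.2 and 12.7 TPM in heart 1 and at 0 TPM in heart 2. By these genes heart 1 was male and heart 2 female, so a difference between the hearts cannot be told apart from one of sex. The 6 neuron and neural crest markers summed to 6.42 TPM in heart 1 and 14.1 TPM in heart 2. The part of these differences in the values that follow was not tested. With 1 group of 2 libraries no contrast between conditions exists and no test is given, since the smallest two-sided p that a sign test could give is 0.5. The spread over both hearts is the SD (n = 2), and a fold between hearts carries a 95% interval for counting error only. In whole tissue, fewer cells of a type and less RNA per cell cannot be told apart.

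The 8 genes spanned 21.8-fold in mean level, from Vegfb at the top to Nrp2 at the bottom. In descending order they were Vegfb, Nrp1, Kdr, Flt1, Vegfc, Flt4, Vegfa and Nrp2. The order was the same in each heart, and for every neighbouring pair the lower library of the first was above the higher library of the next. With 2 libraries this is a description of these hearts and not a test. The intervals deposited with the gene levels overlapped for Flt4 (7.17 to 8.13 and 6.64 to 7.56 TPM) and Vegfa (6.36 to 8.53 and 6.08 to 8.12 TPM). The order of these 2 genes is therefore not resolved. Of the 8 genes, 5 were above the median of the detected genes, and Flt4, Vegfa and Nrp2 were below it.

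**Figure D1:**
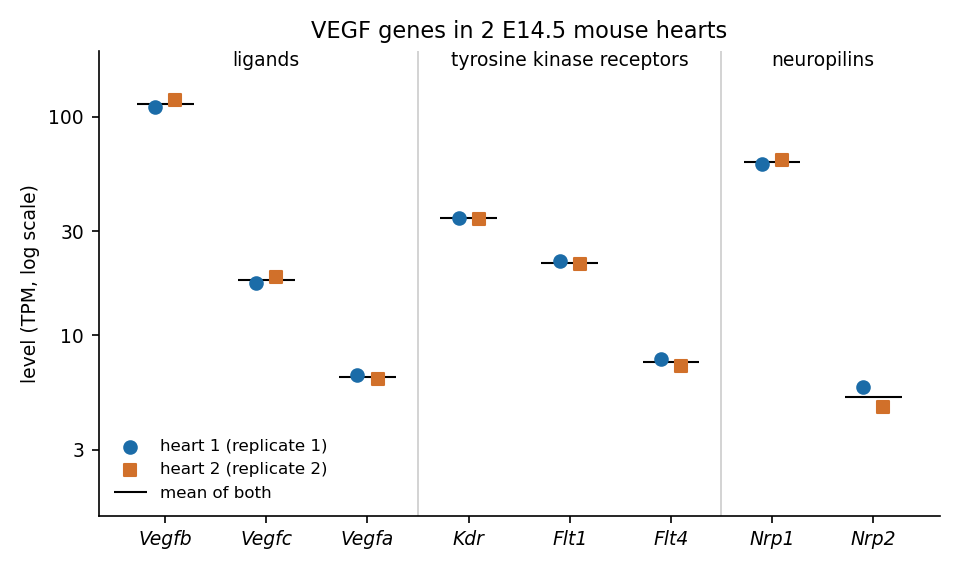
Level of each VEGF gene in TPM (log scale) in heart 1 (circles) and heart 2 (squares), with the mean of both as a line. Vegfb and Nrp1 stand above the rest, Vegfa is the lowest of the 3 ligands drawn at 6.56 and 6.34 TPM, and both symbols lie close together for every gene except Nrp2 at 5.78 and 4.71 TPM.

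Among the ligands, Vegfb dominated. Vegfb, which binds Flt1 and Nrp1 but not Kdr and is known as a product of heart muscle, was at 110.1 TPM in heart 1 and 119 TPM in heart 2 (mean 114.5 ± 6.29 SD, n = 2). Its level was higher than that of 91.6% of the detected genes. Vegfc, the ligand of Flt4 that drives lymphatic growth, was at 17.3 and 18.5 TPM (mean 17.9 ± 0.841 SD, n = 2). Vegfa, the main ligand of Kdr and a target of the oxygen-sensing pathway, was at 6.56 and 6.34 TPM (mean 6.45 ± 0.156 SD, n = 2), from 377 counts in each heart. Vegfa thus lay at the 30.2 percentile of the detected genes.

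Within a heart, Vegfb was 17.7-fold above Vegfa (log2 of Vegfa over Vegfb -4.15 ± 0.11 SD, n = 2). Vegfc was 2.77-fold above Vegfa (log2 of Vegfa over Vegfc -1.47 ± 0.10 SD, n = 2). The ratio of Vegfb to Vegfc was 6.41-fold (log2 2.68 ± 0.01 SD, n = 2), the steadiest of the ratios among ligands. Of the summed level of these 3 ligands, Vegfb held 82.2% and 82.8%, Vegfc 12.9% and 12.8%, and Vegfa 4.90% and 4.41%. The other family ligands were below Vegfb and Vegfc. Pgf, placental growth factor, which binds Flt1, was at 6.67 and 7.60 TPM, and Vegfd, a second ligand of Flt4, was at 3.23 and 3.51 TPM. Pgf was thus near Vegfa and the higher of both in each heart. Its values lay inside the intervals deposited for Vegfa, 6.36 to 8.53 and 6.08 to 8.12 TPM, so their order is not resolved.

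Among the receptor tyrosine kinases, Kdr was the highest. Kdr, the main signalling receptor for VEGF-A, was at 34.6 and 34.1 TPM (mean 34.3 ± 0.332 SD, n = 2). Flt1, which binds VEGF-A tightly but signals weakly, was at 21.8 and 21.1 TPM (mean 21.5 ± 0.453 SD, n = 2). Flt4, the receptor of VEGF-C, marks lymphatic endothelium and is also found on growing blood vessels. Its level was 7.83 and 7.27 TPM (mean 7.55 ± 0.396 SD, n = 2).

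Kdr exceeded Flt1 by 1.60-fold (log2 of Flt1 over Kdr -0.68 ± 0.02 SD, n = 2) and Flt4 by 4.55-fold (log2 2.19 ± 0.06 SD, n = 2). Flt1 exceeded Flt4 by 2.84-fold (log2 1.51 ± 0.05 SD, n = 2). These ratios hold for all transcripts of each gene, and the Flt1 ratio depends on which transcripts are counted, as given below for its forms. The receptors' shares of their summed level were alike in both hearts, at 53.9% and 54.5% for Kdr, 33.9% and 33.8% for Flt1, and 12.2% and 11.6% for Flt4.

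The neuropilins were far apart. Nrp1, the coreceptor for VEGF-A and semaphorin 3A, was at 60.9 and 63.3 TPM (mean 62.1 ± 1.74 SD, n = 2) and had the most counts of the 8 genes, 7399 and 7738. Nrp2, the coreceptor for VEGF-C and semaphorin 3F, was at 5.78 and 4.71 TPM (mean 5.245 ± 0.757 SD, n = 2). Nrp1 was 11.9-fold above Nrp2, at 10.5-fold in heart 1 and 13.4-fold in heart 2 (log2 3.57 ± 0.25 SD, n = 2). This was the pair with the widest spread between hearts among those computed. It follows the lower Nrp2 level of heart 2, while Nrp1 was slightly higher there.

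Summed by role, the ligands were at 133.9 and 143.8 TPM, the receptor kinases at 64.2 and 62.5 TPM and the neuropilins at 66.7 and 68.0 TPM. The ligand sum was 2.19-fold above the receptor sum (log2 1.13 ± 0.10 SD, n = 2), most of it Vegfb. The sums of neuropilins and receptor kinases were close to each other (log2 0.09 ± 0.05 SD, n = 2). RNA levels say nothing of protein amounts.

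The hearts were compared gene by gene on counts scaled with TMM, a method that sets the bulk of genes equal. Among the 11958 genes whose mean count reached 100, 1.95% were at least 1.5-fold apart, and 0 of the 8 VEGF genes were. Of all genes past this fold 160 were higher in heart 2 and 73 in heart 1. With scaling to the spike-ins that split was 276 and 39, and all differences moved up by 0.11 on the log2 scale. The counting interval left out equality for 37.3% of all genes and for 3 of the 8 VEGF genes, a share close to the background. The median absolute log2 difference was 0.06 over the VEGF genes and 0.10 over all. The latter includes genes with fewer counts than any of the 8, so the medians are not matched for depth. Among genes within 1.5-fold of a member's mean count, the share differing by less ran from 8.67% (Nrp1) to 90.7% (Nrp2).

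Nrp2 had the widest difference of the 8. Its counts were 645 in heart 1 and 547 in heart 2, a log2 difference of -0.29 (interval -0.46 to -0.13) for heart 2 over heart 1. Among 2859 genes with mean counts within 1.5-fold of its own, 90.7% differed by less. Flt4 had 991 and 932 counts and a log2 difference of -0.14 (interval -0.27 to -0.01). Kdr had 4194 and 4157 counts and a log2 difference of -0.07 (interval -0.13 to -0.005). The intervals of these 3 genes left out equality, and each was lower in heart 2 on this scale. With spike-in scaling the Kdr difference changed sign, to 0.044, that of Flt4 was -0.03 with an interval that held equality (-0.16 to 0.10), and that of Nrp2 stayed lower at -0.18 (interval -0.35 to -0.01). Under that scaling the intervals of Vegfb, Vegfc and Nrp1 left out equality instead, all higher in heart 2. With scaling to the total of gene counts only those of Nrp2 and Vegfb did, so among these scalings only Nrp2 kept its call in each.

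With TMM scaling the other 5 genes had intervals that held equality. Their log2 differences were 0.07 for Vegfb, 0.05 for Vegfc, -0.05 for Vegfa, -0.04 for Flt1 and 0.01 for Nrp1. For Vegfa the counts allow a difference anywhere from -0.26 to 0.16, so the equal counts show little beyond that range. For Nrp1 the interval was -0.04 to 0.06, the narrowest of the 8.

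**Figure D2:**
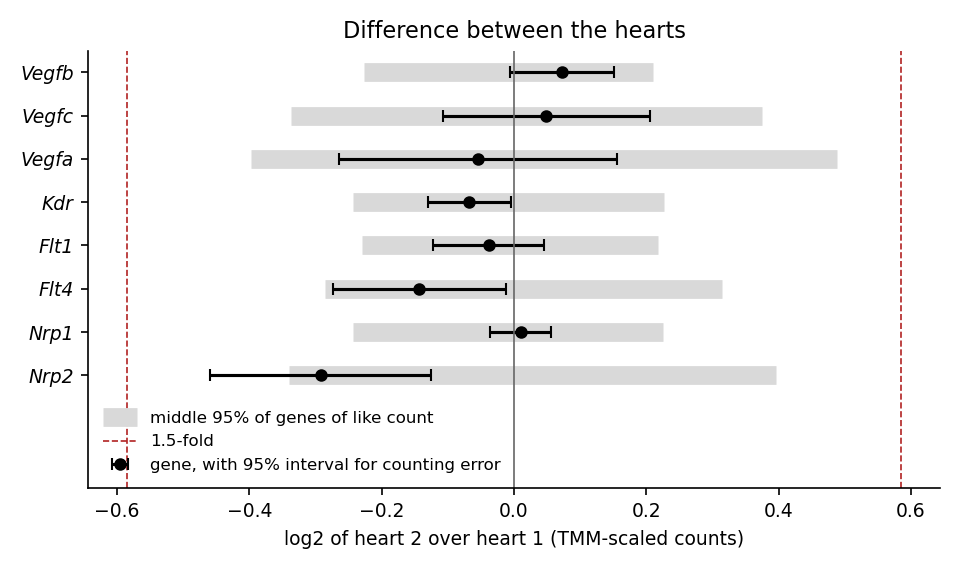
Log2 difference of heart 2 over heart 1 for each VEGF gene (points) with the 95% interval for counting error (bars), over the range that holds the middle 95% of genes with like counts (grey) and lines at 1.5-fold. Every point lies within the grey range and inside the 1.5-fold lines, and Nrp2 at -0.29 lies nearest to the grey edge.

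Because the receptors are carried by endothelial cells, their levels were set beside 18 pan-endothelial markers. All 18 markers were above 1 TPM in both hearts, with list medians of 37.0 and 39.8 TPM. Kdr ranked within the middle of the list, with 9 markers above it in heart 1 and 10 in heart 2. Flt1 had 11 and 12 markers above it, and Flt4 had 16 in each heart. Relative to Pecam1, an adhesion molecule of endothelial junctions, Kdr was at a log2 ratio of -0.76 ± 0.12, Flt1 at -1.44 ± 0.10 and Flt4 at -2.95 ± 0.06 (SD, n = 2). Relative to Cdh5, the cadherin of endothelial junctions, the log2 ratios were -0.37 ± 0.11, -1.05 ± 0.09 and -2.56 ± 0.05. Every one of these ratios was below 0 in both hearts.

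The markers themselves moved little between the hearts. Their median log2 difference was -0.08, 5 of 18 were higher in heart 2, and 0 passed 1.5-fold. Pecam1 was at 62.2 and 54.5 TPM and Cdh5 at 47.3 and 41.9 TPM, both lower in heart 2 by more than Kdr was. Other markers went the other way, with Tie1 at 29.7 and 37.8 TPM (log2 0.34, the widest difference of the list) and Vwf at 17.3 and 21.5 TPM. The part of endothelial content in the values of Kdr, Flt4 and Nrp2 was not tested. Of 7 lymphatic markers, 7 were above 1 TPM, led by Ccl21a at 22.9 and 32.3 TPM, a chemokine of lymphatic vessels. The Ccl21a counts, 369.57 and 524.09, were not whole, so some of its reads were shared with other genes in the authors' estimate. Pdpn was at 19.1 and 20.9 TPM and Prox1, the regulator of lymphatic identity that heart muscle also expresses, at 16.7 and 16.3 TPM. The lowest of the list were Foxc2, Lyve1 and Reln, at means of 4.8, 4.275 and 2.08 TPM. The median log2 difference of the 7 markers was 0.08, while that of Flt4 was -0.14. Among 4 endocardial markers, all were above 1 TPM, with medians of 38.5 and 40.6 TPM. No marker lay near these medians, since Plvap and Cdh11 had means of 88.9 and 62.0 TPM and Nfatc1 and Npr3 of 17.1 and 8.34 TPM.

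**Figure D3:**
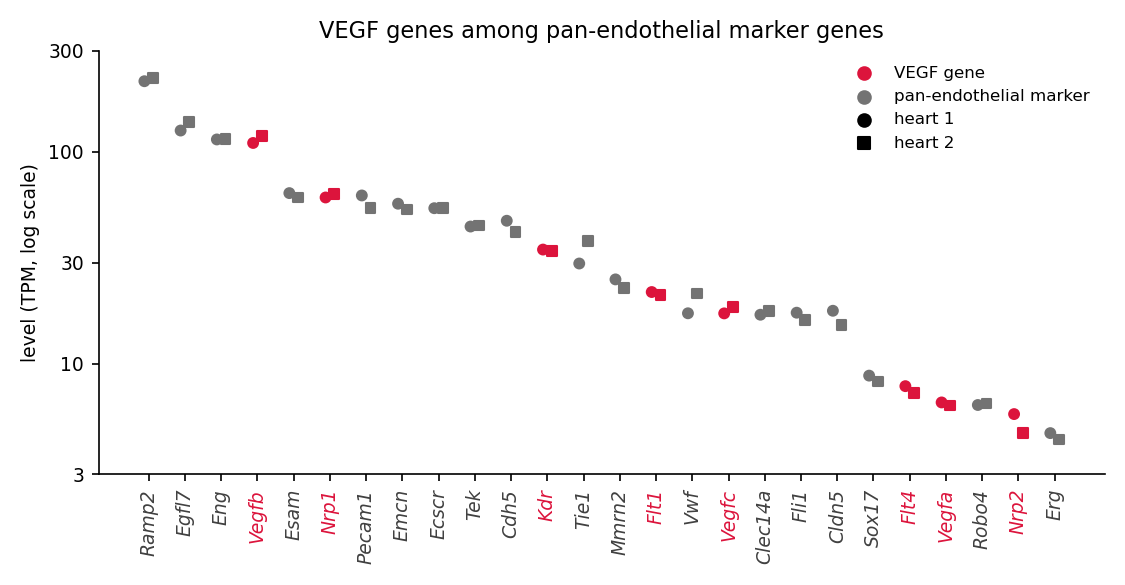
Levels of the 8 VEGF genes (red) and of 18 pan-endothelial markers (grey) in TPM on a log scale, sorted by mean, with circles for heart 1 and squares for heart 2. Kdr and Flt1 lie in the middle of the markers, Vegfb and Nrp1 among the highest, and Flt4, Vegfa and Nrp2 near the lower end, where Erg is lowest at a mean of 4.54 TPM.

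Transcript estimates divide a gene's reads among its annotated models, and each deposited estimate has an interval. Shares below are of the gene's TPM in heart 1 and heart 2. For Vegfa the forms without exons 6 and 7, of the VEGF120 kind that lacks the heparin-binding stretches, held 71.8% and 76.9%. The form with exon 7 only, of the VEGF164 kind that also binds neuropilins, held 16.01% and 13.8%. The forms with both exons, of the VEGF188 kind that stays on matrix, held 0% in each, or 5.01% and 5.19% by the posterior mean TPM. The form with exon 6 only was likewise at 0%, or 4.60% and 2.95% by the posterior mean TPM. That measure stays above 0 even for models with almost no reads. Flt1-205 in heart 1, for example, had a posterior mean count of 0.02 and a posterior mean TPM of 0.27. The posterior mean counts were 6.02 and 8.69 for Vegfa-207 and 1.41 and 0.54 for Vegfa-204, with both exons. For Vegfa-203, with exon 6 only, they were 2 and 0.84. The models with exon 6 end in last exons of 22, 49 and 337 nt, against 1887 nt in Vegfa-201 and Vegfa-202, so a share of 0% depends on the annotated ends. Transcripts with no coding sequence held 12.2% and 9.34%.

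These Vegfa shares rested on few reads and on uncertain models. Vegfa-211 was estimated at 2.71 and 3.12 TPM, with intervals of 0.61 to 3.85 and 0.83 to 4.24. Its length in the tables is 3324 nt against 975 nt in the later annotation from which exon use was read, so its exon content is uncertain. Vegfa-201, with 146 residues and the junction of exon 5 to exon 8 shown above, was at 2.00 and 1.74 TPM, 30.5% and 27.5% of the gene. Vegfa-202, with exon 7 and an annotated coding sequence of 368 residues, was at 1.05 and 0.87 TPM, with intervals of 0.09 to 2.63 and 0 to 2.41. The intervals of these 3 models overlapped in each heart, so their order is not resolved. The retained-intron transcript Vegfa-206 was at 0.68 and 0.26 TPM. Another 5 Vegfa models were listed at 0 TPM in both hearts.

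Vegfb was split between its forms in almost the same proportion in both hearts. Vegfb-202, with the short exon 6, has 188 residues and ends in a heparin-binding stretch, and it was at 64.3 and 69.9 TPM, or 58.4% and 58.7%. Vegfb-201, with the added stretch, has 207 residues and is the more soluble kind. It was at 43.4 and 47.4 TPM, or 39.4% and 39.8%. The deposited intervals of the 2 forms did not overlap in either heart, at 55.8 to 68.8 against 36.8 to 48.1 TPM in heart 1 and 59.6 to 74.9 against 40.3 to 53.6 TPM in heart 2. Among the genes with several coding forms, Vegfb thus had the most counts and the smallest SD of its leading share, 0.252 percentage points.

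**Figure D4:**
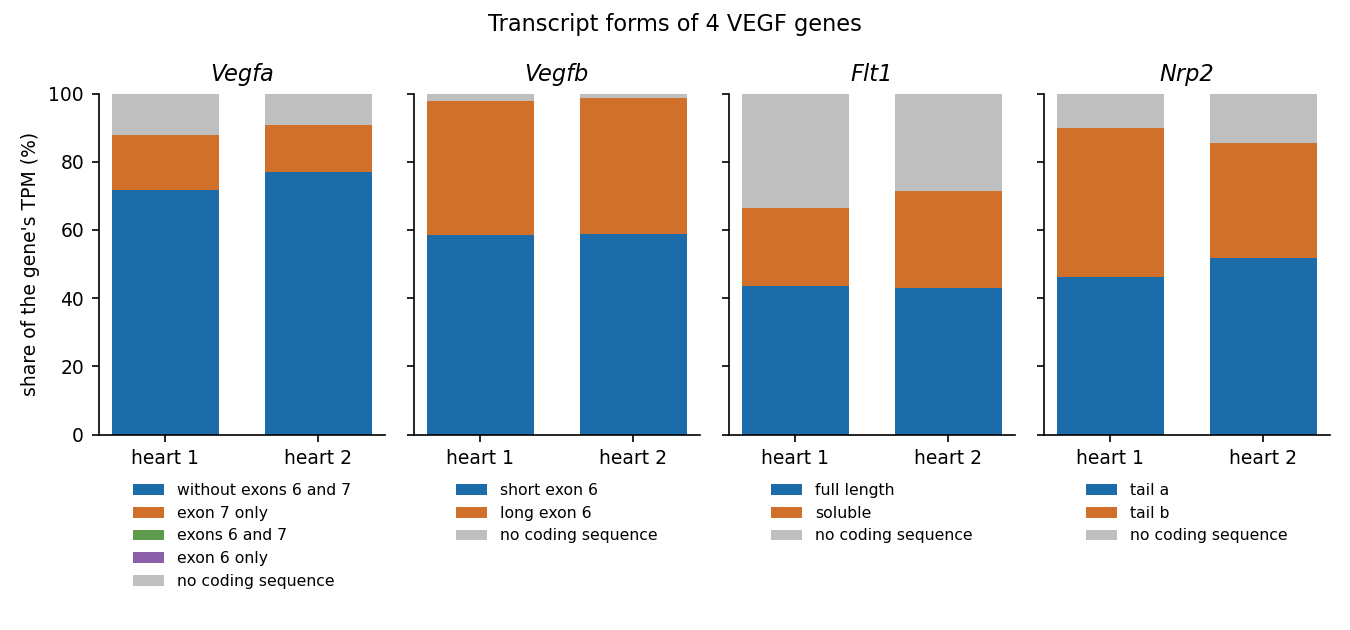
Share of each gene's TPM (%) held by its transcript forms in heart 1 and heart 2, as stacked bars for Vegfa, Vegfb, Flt1 and Nrp2. The Vegfb bars are nearly alike at 58.4% and 58.7% for the short exon 6, the Vegfa forms with exon 6 are at 0% by this estimate (not by the posterior mean), and the soluble share of Flt1 is 22.6% and 28.4%.

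Flt1 had a full-length and a soluble coding form in both hearts. Flt1-202, the membrane receptor of 1333 residues, was at 9.52 and 9.08 TPM, or 43.7% and 43.0% of the gene. Flt1-203, the soluble receptor of 688 residues that binds ligand without signalling, was at 4.93 and 6.01 TPM, or 22.6% and 28.4%. The soluble form had 639 counts in heart 1 and 783 in heart 2, and its intervals, 4.33 to 5.29 and 5.35 to 6.38 TPM, did not overlap. The full-length form had 1354 and 1298 counts, with intervals of 8.67 to 9.90 and 8.28 to 9.46 TPM that did overlap. Of the coding level, the soluble form was thus 34.1% in heart 1 and 39.8% in heart 2. Of the soluble model, 4066 nt lie outside the full-length model, so reads of unspliced Flt1 RNA there cannot be told apart from it. These intervals cover the estimate within a library and not the spread between embryos.

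Transcripts with no coding sequence held 33.7% and 28.6% of Flt1. Most of this lay on Flt1-201, a processed transcript at 6.96 and 5.37 TPM, or 32.0% and 25.4%. Of its 12 exons 10 are identical to exons 2 to 11 of Flt1-202, and 88.2% of its bases lie in both coding forms, so only 241 nt tell it apart. With coding transcripts alone, Flt1 was at a mean of 14.8 TPM in place of 21.5. The log2 ratio of Flt1 to Kdr was then -1.20 in place of -0.68, and Flt1 fell below Vegfc in the order.

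Most of the Nrp2 level was divided between both tails. The retained-intron transcript Nrp2-207, with no coding sequence, held 10.0% and 14.4% at 0.58 and 0.68 TPM. Tail a, which can bind the trafficking adaptor Gipc1, was at 2.67 and 2.44 TPM, or 46.2% and 51.8%. Tail b was at 2.53 and 1.59 TPM, or 43.8% and 33.8%. The lower Nrp2 level of heart 2 was therefore mostly in tail b. By model, Nrp2-204 (tail a, 909 residues) was at 1.76 and 1.89 TPM, with wide intervals of 0.00 to 2.19 and 0.43 to 1.98 and lower posterior means of 1.11 and 1.25 TPM. Nrp2-203 (tail a with the exon 15 extension, 914 residues) was at 0.57 TPM in heart 1 and 0 TPM in heart 2, with posterior means of 1.04 and 0.50 TPM. The split between these tail a models is therefore not resolved. Nrp2-201 (tail b with the exon 15 extension, 906 residues) was at 1.96 and 0.86 TPM. The intervals of Nrp2-201, 1.33 to 2.40 and 0.37 to 1.31 TPM, just missed each other. Nrp2-205 (tail b, 901 residues) moved the other way, at 0.57 and 0.73 TPM, and its intervals overlapped. The cassette form Nrp2-202 was at 0.34 and 0.55 TPM, with wide intervals of 0.09 to 0.72 and 0.07 to 0.90. The form with both the extension and the cassette was listed at 0. Its posterior mean counts were 11.7 and 25.3, so its absence is not shown.

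**Figure D5:**
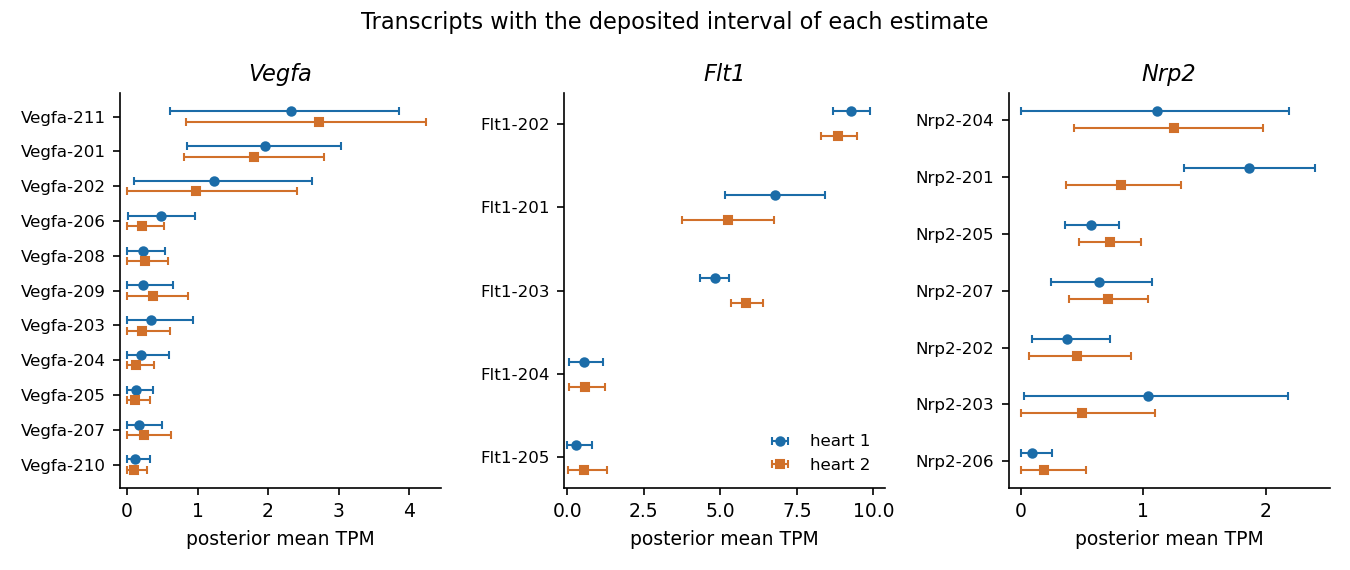
Posterior mean TPM of each transcript of Vegfa, Flt1 and Nrp2 in heart 1 (circles) and heart 2 (squares), with the interval deposited for each estimate. The Vegfa intervals overlap widely, whereas those of Flt1-203 (4.33 to 5.29 and 5.35 to 6.38 TPM) and of Nrp2-201 do not overlap between the hearts.

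The other 4 genes were carried by 1 coding model each. Kdr-201 (1345 residues) held 99.1% and 99.0%, Flt4-201 (1363 residues) 95.9% and 97.8%, and Nrp1-201 (923 residues) and Vegfc-201 (415 residues) were the only models of their genes in the tables. For Nrp1 and Vegfc other lengths stand in the later annotation (3597 in place of 5907 nt and 2449 in place of 1881 nt), and a TPM moves inversely with the length used. All 8 genes had a posterior SD of 0 for the gene count, so no read was shared with another gene in the authors' estimate.

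The pathway around these genes was described from lists of its parts. Of 10 genes of oxygen sensing, which sets Vegfa transcription, 10 were above 1 TPM in both hearts and 0 were 1.5-fold apart. Hif1a, the oxygen-regulated transcription factor, was highest at 136.1 and 138.3 TPM, followed by Hif3a at 39.1 and 33.1 TPM and Vhl, which targets Hif1a for destruction, at 26.5 and 25.9 TPM. The list's median log2 difference was -0.04.

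Of 36 signal transducers of the receptors, 35 were above 1 TPM, and the median log2 difference was 0.02. The highest were Hspb1, a small heat shock protein of the p38 branch, at 713 and 791 TPM, and the cytoskeletal regulators Cdc42 at 402 and 412 TPM and Rac1 at 236 and 239 TPM. They are general cell components and not specific to endothelium. Past 1.5-fold were 2 of the list, both higher in heart 2: Mapkapk2, the kinase of Hspb1, at 46.8 and 74.8 TPM, and the tyrosine kinase Src at 3.25 and 5.23 TPM.

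Of 16 phosphatases, trafficking proteins and negative regulators, 16 were above 1 TPM and 0 passed 1.5-fold, with a median log2 difference of -0.03. Gipc1, the adaptor of neuropilin tails, led with 102 and 107.3 TPM, then the feedback inhibitor Spry2 with 49.2 and 51.7 TPM and the Ras inhibitor Rasa1 with 46.8 and 51.1 TPM. Of 12 genes known to respond to VEGF in endothelium, 10 were above 1 TPM. The highest were Rcan1, a calcineurin inhibitor, at 81.2 and 80.2 TPM, the protease Adamts1 at 35.0 and 35.9 TPM and the urokinase receptor Plaur at 6.45 and 6.23 TPM. These are levels of whole heart, and which cells held them was not tested. Angpt2, a ligand of the receptor Tek, was the only gene of this list with 50 or more counts on average past 1.5-fold, at 1.77 and 3.41 TPM (log2 0.90).

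Of 12 semaphorins and plexins that pair with neuropilins, 10 were above 1 TPM, and the highest were Plxnd1 at 30.4 and 29.1 TPM, Sema3a at 11.0 and 10.3 TPM and Sema3d at 10.0 and 10.9 TPM. Plxnd1 is a plexin of endothelial cells, and Sema3a is the ligand of Nrp1. None of these genes with 50 or more counts on average passed 1.5-fold. Of 5 genes of VEGF-C processing 4 were above 1 TPM, led by the protease Furin at 14.0 and 19.6 TPM, with Pcsk5 at 8.61 and 9.28 TPM and Pcsk7 at 8.99 and 8.52 TPM. Ccbe1, which aids the cleavage of VEGF-C, was low, at 0.16 TPM (6 counts) in heart 1 and 0.88 TPM (37 counts) in heart 2, and is named after its values were seen. Its log2 difference was 2.47, with a counting interval of 1.31 to 4.11. Of the 82 genes in these 6 lists whose mean count reached 100, 3 were past 1.5-fold (3.66%, beside 1.95% of all genes), and all 3 were higher in heart 2. Of the 9 genes below that count, 3 were past 1.5-fold and higher in heart 2 (Ccbe1, Sema3e with 32 and 53 counts, and Sh2d2a with 2 and 5) and 1 was lower there (Egr3, with 5 and 0 counts). These, too, are named after their values were seen. Of all genes, 10.4% were past this fold from a mean count of 10, against 1.95% from 100. The share among all genes below 100 was not computed, so these 9 have no background of like depth. The list medians lay between -0.06 and 0.03.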

How the data were processed

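Total RNA was measured by sequencing in 2 E14.5 mouse heart libraries. Per the labels' protocols, RNA was extracted with mirVana, 10 ng was used per library and spike-ins were added. The deposited gene and transcript tables used mm10 and GENCODE M4, per the notes deposited with them. Neither aligner and quantifier nor the use of strand is given in the sources used here. The column names are those of RSEM. Expected counts are the authors' estimated counts, not scaled by depth. The deposited TPM sums to 1e+06 in each table when every row is added, spike-ins among them. FPKM, also by the authors, was used as an alternative. The deposited posterior means and intervals came from the same tables, and the confidence level of these intervals is not known. Percent values of transcript shares were computed here from the deposited TPM.

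Here, a library's expected counts were rounded and scaled with TMM (edgeR 4.0.16, R 4.3.3), with DESeq2 1.42.0 size factors, spike-in and total scaling as alternatives. A log2 difference used a prior count of 0.5 and an exact Clopper-Pearson 95% interval. The interval was run on simulated counts that held counting error only, as the interval assumes, so that check does not cover the spread between embryos. Genes of like count were those within 1.5-fold in mean count. Exons, coding lengths and positions came from GENCODE M21 (GRCm38) by identifier. All 8 genes were named, and of each pathway list the 3 highest, those past 1.5-fold with 50 or more counts on average and those at 0. The genes named from the cell marker lists were not picked by this rule. Transcripts were named from 5% of Vegfa, or 10% of the other genes. The members and lists were chosen with earlier results of these data known.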

Additional observations from a re-analysis of the deposited data

How the results depend on the processing

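No paired analysis was possible because there was 1 group. Of the alternative values computed, none put another gene in place of the highest or the lowest. The order was kept by the posterior mean averaged over both hearts, by FPKM and by each heart alone. By the posterior mean Flt4 and Vegfa were close, at 7.375 and 7.25 TPM. With TPM rescaled to gene rows every level rose to 107.9% of its value, to 6.96 for Vegfa, 123.6 for Vegfb, 19.3 for Vegfc, 23.2 for Flt1, 37.0 for Kdr, 8.15 for Flt4 and 67.0 for Nrp1. Posterior mean TPM moved Vegfa to 7.25 and Kdr to 33.4, and coding transcripts alone moved Vegfa to 5.745, Flt1 to 14.8 and Kdr to 34.0.

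The log2 ratios by posterior mean TPM were -0.65 for Flt1 over Kdr, -3.94 for Vegfa over Vegfb and -1.26 for Vegfa over Vegfc. With coding transcripts alone they were -1.20 for Flt1 over Kdr, 1.01 for Flt1 over Flt4, -4.29 for Vegfa over Vegfb, -1.64 for Vegfa over Vegfc, 2.65 for Vegfb over Vegfc, 1.28 for ligands over receptors, 0.25 for neuropilins over receptors, -1.95 for Flt1 over Pecam1 and -1.59 for Flt1 over Cdh5. Fewer transcripts are summed there.

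With spike-in scaling the log2 differences between hearts were 0.18 for Vegfb, 0.073 for Flt1 and 0.044 for Kdr (both with a change of sign, as for Vegfa at 0.057) and 0.12 for Nrp1, so that 6 genes in place of 3 were higher in heart 2, and the ratio of TPM gave 0.057 for Nrp1. The share of genes 1.5-fold apart was 10.4% where genes from 10 counts on average entered and 0.652% where 500 were required, with 16387 and 8283 genes; the cause was not tested.

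As a share of counts, the forms were 80.1% (Vegfa without exons 6 and 7), 17.9% (Vegfa with exon 7 only), 56.6% and 42.8% (Vegfb short and long exon 6), 57.9% and 31.0% (Flt1 full-length and soluble) and 59.1% (Nrp2 tail a). The posterior mean TPM, which also gives a level to models with almost no reads, gave 60.6% for Vegfa without exons 6 and 7. It gave 58.1% and 40.0% for the Vegfb forms and 42.4% for full-length Flt1. Of coding transcripts alone they were 83.3% and 16.7% for Vegfa, 59.6% and 40.4% for Vegfb, 63.0% and 37.0% for Flt1 and 55.9% for Nrp2 tail a. At a minimum of 5 TPM, 1 of the other VEGF ligands, 5 VEGF-responsive genes and 4 lymphatic markers remained counted.

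With 377 counts in each heart, Vegfa has the least depth of the 8 genes. The intervals of its transcripts, and of Nrp2-204, are wide beside their levels.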

Other observations

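The promoters of the VEGF genes were rich in G and C. RefSeq promoters of 300 nt on GRCm38.p6 were matched for 8 of 8 genes, with 9 promoters in all, 2 of them of Vegfa. Their GC content ran from 59.3% for a Vegfa promoter to 75.3% for Vegfb, and the median over 32851 promoters was 52.7%. They held 10 to 37 CpG dinucleotides, the most in Nrp2, where the median promoter held 7. This is a description of the reference and bears on no measured value.

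Few reads of other genes can overlap these members. Nrp1 overlaps Mir1903, which was listed at 0 TPM, and Nrp2 overlaps the antisense gene Gm29083, at 0 and 0.07 TPM, and Gm37121, at 0.21 and 0.12 TPM.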
